A study of Mus musculus with 18 samples.

Results

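The region upstream of the mouse alpha-globin genes was examined as the Hba promoters contact it, from chr11:32000000-32182316 in NCBIM37 (mm9), which ends where the captured promoter fragments begin. The stretch is 182 kb long and DpnII cuts it into 446 whole fragments, which were taken by position, with no measured value in the rule. Of these, 436 had at least 1 interaction in 1 of the 9 libraries captured for promoters and 10 had none. They stood among 73153 fragments of chromosome 11 and 262414 of all chromosomes with an interaction at this viewpoint, the fragment from which contacts are read. NG Capture-C crosslinks nuclei, cuts and ligates their DNA, and counts the fragments joined to a viewpoint that oligonucleotides pull down. It was applied to 3 cell types with 3 replicates each. ESC were embryonic stem cells of strain 129/Sv//EV, grown with LIF and collected on day 0. DE, definitive endoderm, was made from ESC of that strain by embryoid body culture without LIF and then ActivinA and EGF, at 20 ng/ml each, and was collected on day 5. Erythrocytes came from spleens of C57BL/6 mice given 3 doses of phenylhydrazine, a drug that destroys red cells, 12 h apart. Erythrocytes differ from the others in strain as well as cell type, and these cannot be told apart. The assay measures no RNA, so neither the purity of DE nor the maturity of the splenic red cells was checked here.

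The alpha-globin locus is a classical model of how enhancers reach promoters. In red cells, a row of DNase I hypersensitive sites (HS), named by their distance in kb upstream of the embryonic zeta-globin gene Hba-x, acts on the adult Hba-a1 and Hba-a2 genes. Several of these enhancers lie inside introns of Nprl3, the neighbouring gene for a subunit of GATOR1, an inhibitor of mTORC1 signalling. HS-38 and HS-39 bind CTCF, an insulator protein that often marks the edges of chromatin domains. The sites were placed here by their names, as windows of 1 kb to each side of the points 31, 26, 21, 12, 8, 38 and 39 kb upstream of the annotated Hba-x start at 32176400, so their centres are approximate. The probes covered both adult promoters, which are nearly identical and 12.7 kb apart, so contacts of Hba-a1 and Hba-a2 cannot be told apart.

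The reference sequence of the fragment with the highest erythrocyte mean in each enhancer window shows what was counted there, as the fragment's middle 300 bases on the plus strand. Each overlaps no UTR. Capitals mark AGATAA, a form of the motif that the erythroid factor GATA1 binds, and CACCC, which erythroid Klf factors bind, on either strand. The stretches printed lay at chr11:32145773-32146072 for HS-31, chr11:32151322-32151621 for HS-26, chr11:32154441-32154740 for HS-21, chr11:32163718-32164017 for HS-12 and chr11:32168897-32169196 for HS-8. That of HS-26 lies mostly outside its window, which ends at 32151400, since its fragment only overlaps the window's edge.
HS-31: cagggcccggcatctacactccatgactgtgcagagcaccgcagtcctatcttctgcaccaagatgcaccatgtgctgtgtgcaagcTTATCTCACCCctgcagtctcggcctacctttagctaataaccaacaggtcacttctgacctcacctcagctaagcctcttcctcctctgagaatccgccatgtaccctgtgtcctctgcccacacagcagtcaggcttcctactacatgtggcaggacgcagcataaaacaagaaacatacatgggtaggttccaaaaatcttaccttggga
HS-26: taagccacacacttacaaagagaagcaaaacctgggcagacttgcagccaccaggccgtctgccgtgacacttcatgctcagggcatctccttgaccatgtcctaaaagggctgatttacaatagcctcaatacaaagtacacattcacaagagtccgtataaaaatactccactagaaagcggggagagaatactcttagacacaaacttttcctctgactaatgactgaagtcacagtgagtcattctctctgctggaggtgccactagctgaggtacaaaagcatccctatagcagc
HS-21: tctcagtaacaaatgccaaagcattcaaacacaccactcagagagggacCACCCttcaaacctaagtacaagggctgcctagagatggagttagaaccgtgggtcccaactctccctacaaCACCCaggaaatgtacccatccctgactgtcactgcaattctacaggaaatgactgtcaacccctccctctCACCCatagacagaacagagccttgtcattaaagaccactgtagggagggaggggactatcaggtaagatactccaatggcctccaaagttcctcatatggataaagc
HS-12: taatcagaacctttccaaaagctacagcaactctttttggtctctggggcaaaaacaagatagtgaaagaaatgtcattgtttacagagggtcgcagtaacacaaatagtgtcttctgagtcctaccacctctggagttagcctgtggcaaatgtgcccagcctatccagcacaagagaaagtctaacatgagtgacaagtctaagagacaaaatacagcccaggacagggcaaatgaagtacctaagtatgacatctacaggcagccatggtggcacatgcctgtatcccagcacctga
HS-8: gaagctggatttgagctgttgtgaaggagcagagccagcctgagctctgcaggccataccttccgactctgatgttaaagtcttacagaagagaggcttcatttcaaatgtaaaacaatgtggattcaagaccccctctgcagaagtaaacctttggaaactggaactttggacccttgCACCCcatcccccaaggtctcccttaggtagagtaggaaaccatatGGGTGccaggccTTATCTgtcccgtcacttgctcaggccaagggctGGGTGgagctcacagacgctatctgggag

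The sequence of HS-31 held 1 match to AGATAA beside 1 match to CACCC, and that of HS-8 held 1 and 3. The stretch of HS-21 had 3 matches to CACCC and those of HS-26 and HS-12 had none of either. Over the whole windows, AGATAA matched 2 times at HS-31, 2 at HS-26, 1 at HS-21, 3 at HS-12 and 1 at HS-8, and did not match at HS-38 or HS-39. A match of that kind was present in 70.3% of 59337 stretches of 2001 bp on chromosome 11 and in 60.4% of 91 such stretches of the flank, and CACCC in 96.0% and 98.9%. The core motif of CTCF, searched on both strands, matched at 2 places in the flank, 120 and 177 kb from the captured zone, and in 0.782% of the stretches of the chromosome. It did not match within the windows of HS-38 and HS-39, which says only that these letters are not in those windows.

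Values are interactions per 100000 on chromosome 11, as deposited signals rescaled for each library, unless a share or ratio is named. Each ESC library held 52684 to 84184 interactions, each DE library 100220 to 192158 and each erythrocyte library 26659 to 86404, of which the flank took between 3189 and 26869 reads. Erythrocyte replicate 2 stood apart from the other two in the share of interactions on chromosome 11, which was 71.7% there and 27.9% and 26.5% in replicates 1 and 3. ESC libraries had 65.3% to 73.0% there, and DE libraries 62.8% to 65.9%. Interactions with other chromosomes, spread evenly, came to at most 0.551 per 5 kb on the same scale. Over 5 kb bins, the chi-square per degree of freedom was 1.75 to 2.24 between replicates of ESC or DE, 4.71 to 19.2 between erythrocyte replicates and 1.81 to 3.42 between 2 captures of 1 library. Replicates of ESC and DE thus differed by more than sampling noise, in a range that overlaps the 1.81 to 2.11 of repeated captures of those libraries. The Hba column of the capture labelled for enhancers has the same valueless promoter zones, and was therefore read as a second capture of the same promoters from the same libraries, which is technical and adds no replicate.

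The flank took a larger part of the contacts of the Hba promoters on chromosome 11 in erythrocytes than in ESC or DE. Its share was 28.1%, 37.2% and 32.2% in the erythrocyte libraries, 26.7%, 25.4% and 24.7% in ESC and 21.3%, 21.2% and 20.7% in DE. Every erythrocyte library lay above every ESC library and every ESC library above every DE library. The means were 32.5% ± 4.57 in erythrocytes, 25.6% ± 1.00 in ESC and 21.1% ± 0.341 in DE (SD, n = 3 each). Each pair of cell types gave p = 0.1 in an exact two-sided permutation test, the smallest that 3 libraries against 3 allow. The Wilson 95% intervals of single libraries were between 0.450 and 1.84 percentage points wide and cover counting error only, since reads without molecular identifiers can include PCR copies. As a share of all interactions the order changed, with 7.83%, 26.7% and 8.52% in erythrocyte replicates 1 to 3 against 16.1% to 19.5% in ESC and 13.0% to 14.0% in DE. The difference from ESC was then -3.48 percentage points, so the higher share in erythrocytes holds for contacts within the chromosome, and on either scale for replicate 2.

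The second capture gave each library the same share to within 0.881 percentage points. The flank had more contacts than an equally long stretch on the other side of the captured zone in all 9 libraries, and the asymmetry was larger in erythrocytes. The ratio was 2.74, 3.37 and 2.39 in erythrocytes, 1.40, 1.33 and 1.32 in ESC and 1.35, 1.35 and 1.35 in DE. On the log2 scale the erythrocyte mean exceeded that of ESC by 1.05 and that of DE by 1.05, with no overlap (p = 0.1 for each by exact two-sided permutation). DE and ESC overlapped, with a difference of 0.00077 (p = 1.0 in the exact permutation test). The downstream stretch held 11589 ± 1676 interactions in erythrocytes, 15586 ± 240 in DE and 18940 ± 163 in ESC (SD, n = 3). The larger ratio in erythrocytes thus came with fewer contacts downstream as well as more upstream.

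**Figure D1:**
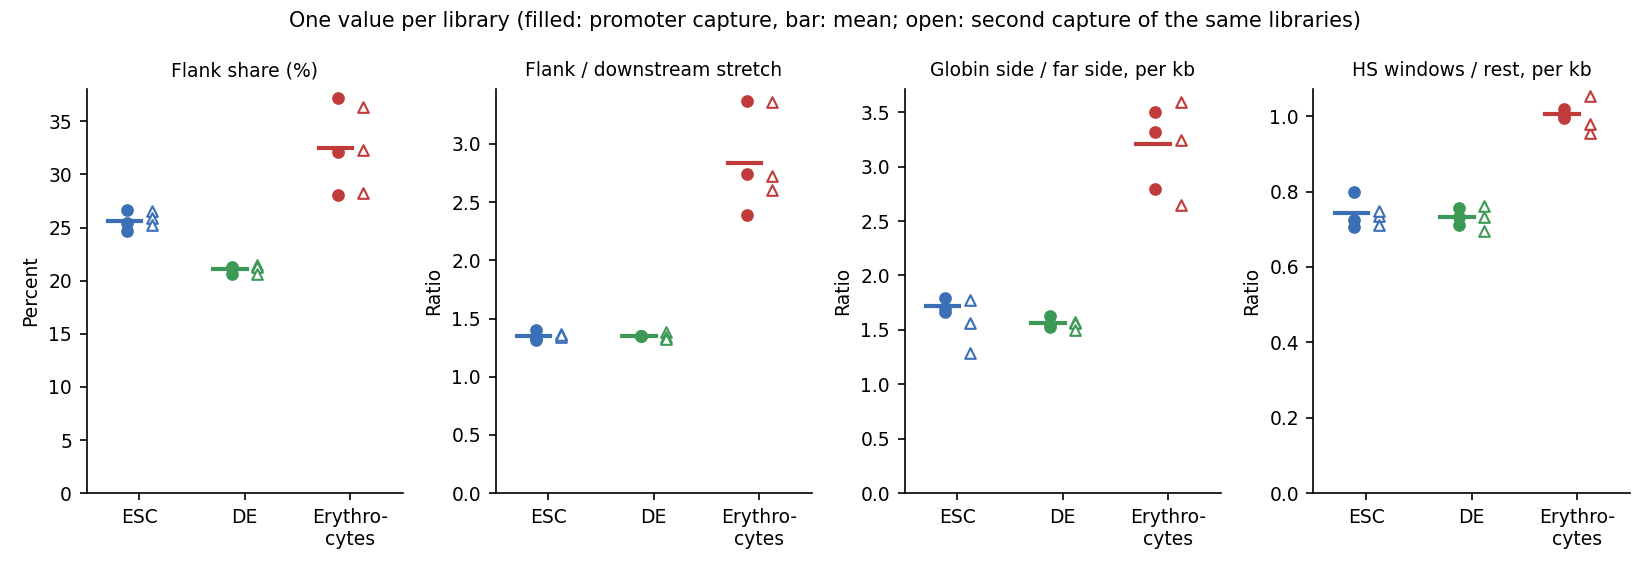
Each panel gives 1 value per library for ESC, DE and erythrocytes: the flank's share of interactions on chromosome 11 (percent), the ratio of the flank to the equally long downstream stretch, the ratio per kb across HS-38 and HS-39, and the ratio per kb of the 5 enhancer windows to the rest of their stretch. Filled points are the promoter capture with bars at the mean of 3 libraries, open triangles the second capture of the same libraries, and the erythrocyte points lie above all ESC and DE points in every panel.

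The gain in erythrocytes was not spread along the flank. On the globin side of the point midway between HS-38 and HS-39, 44.4 kb from the captured zone, the erythrocyte libraries held 20684, 28340 and 26777 interactions. ESC libraries held 14277 to 15514 there and DE libraries 11679 to 11839, so the erythrocyte mean was 1.72 times that of ESC and 2.15 times that of DE. On the far side erythrocytes were lowest and ESC stayed above DE, with 5374 to 8878 in erythrocytes, 10434 to 11170 in ESC and 8994 to 9471 in DE. The globin side thus took 73.6%, 76.1% and 83.3% of flank contacts in erythrocytes, against 56.5% to 58.1% in ESC and 55.6% to 56.5% in DE (exact two-sided permutation test, p = 0.1 against each). The median distance of the flank's contacts from the captured zone was 28.3, 27.7 and 15.8 kb in erythrocytes, 30.8 to 33.1 kb in ESC and 32.1 to 33.7 kb in DE.

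**Figure D2:**
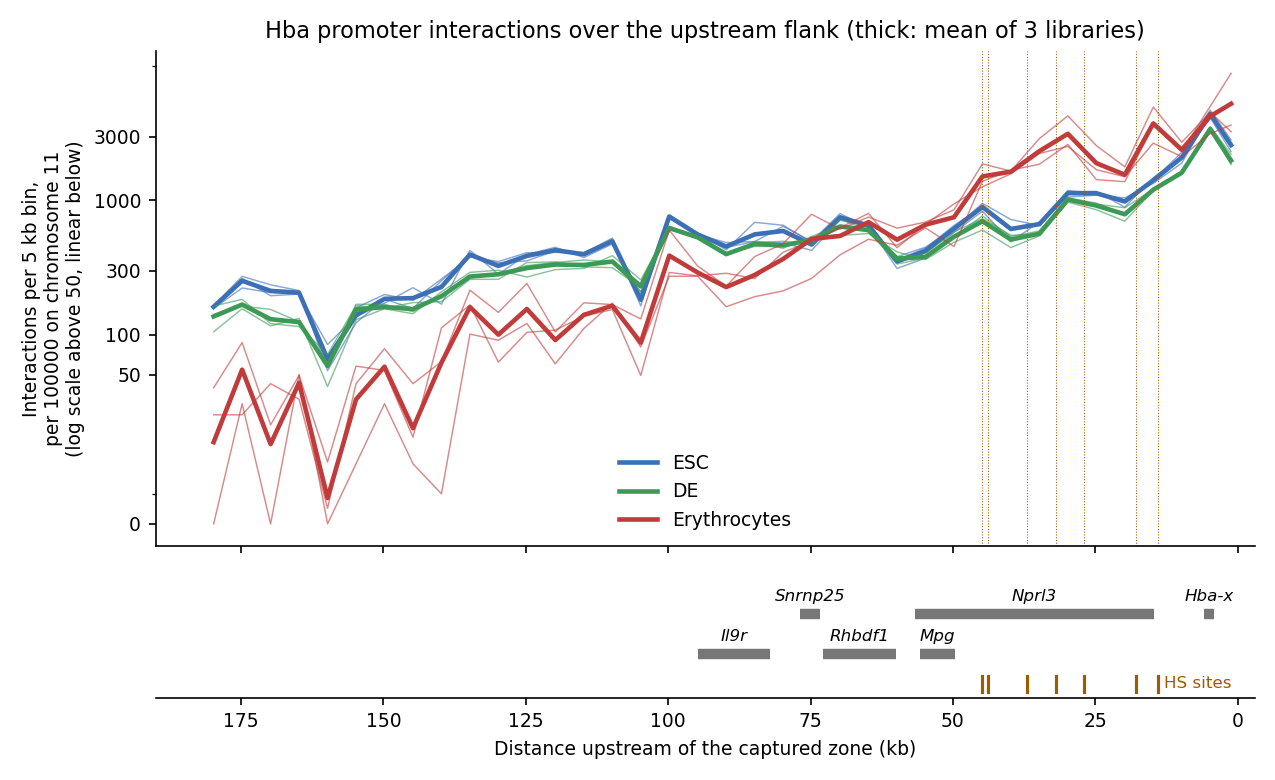
Interactions per 5 kb bin and per 100000 on chromosome 11 (log axis above 50, linear below) are drawn against the distance upstream of the captured zone in kb, with thin lines for libraries, thick lines for means of 3, and the genes and hypersensitive sites below. The erythrocyte mean lies above ESC and DE in each bin from 64.8 to 9.82 kb and in those at 74.8 and 1.16 kb. It has peaks of 3144 in the bin of HS-26 and 3759 in the bin of the Nprl3 start, and lies below both from 79.8 kb outwards.

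In 5 kb bins, 6 of the 37 flank bins were higher in erythrocytes than in ESC by limma and 19 were lower, where 2.75% and 15.8% of all bins tested on the chromosome were called in these directions. Against DE, 7 were higher and 12 lower, with 0.979% and 6.14% of all bins called. The bins called higher were centred between 14.8 and 44.8 kb from the captured zone in both comparisons and held the start and the body of Nprl3. The bins called lower lay between 84.8 and 180 kb away against ESC and between 94.8 and 175 kb against DE. No bin between 49.8 and 79.8 kb, over Mpg, Rhbdf1 and Snrnp25, passed the threshold in either comparison. The bin with HS-31 rose most, to 2335 ± 522 in erythrocytes from 667 ± 22.0 in ESC and 565 ± 24.6 in DE, with log2 fold changes of 1.77 ± 0.225 (SE, adjusted p = 0.000306) and 2.00 ± 0.202 (adjusted p = 0.00917). The bin next to the captured zone held 3655, 3263 and 8892 in erythrocytes against 2317 to 2829 in ESC and 1863 to 2216 in DE and was not called against either (adjusted p = 0.0517 for each).

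**Figure D3:**
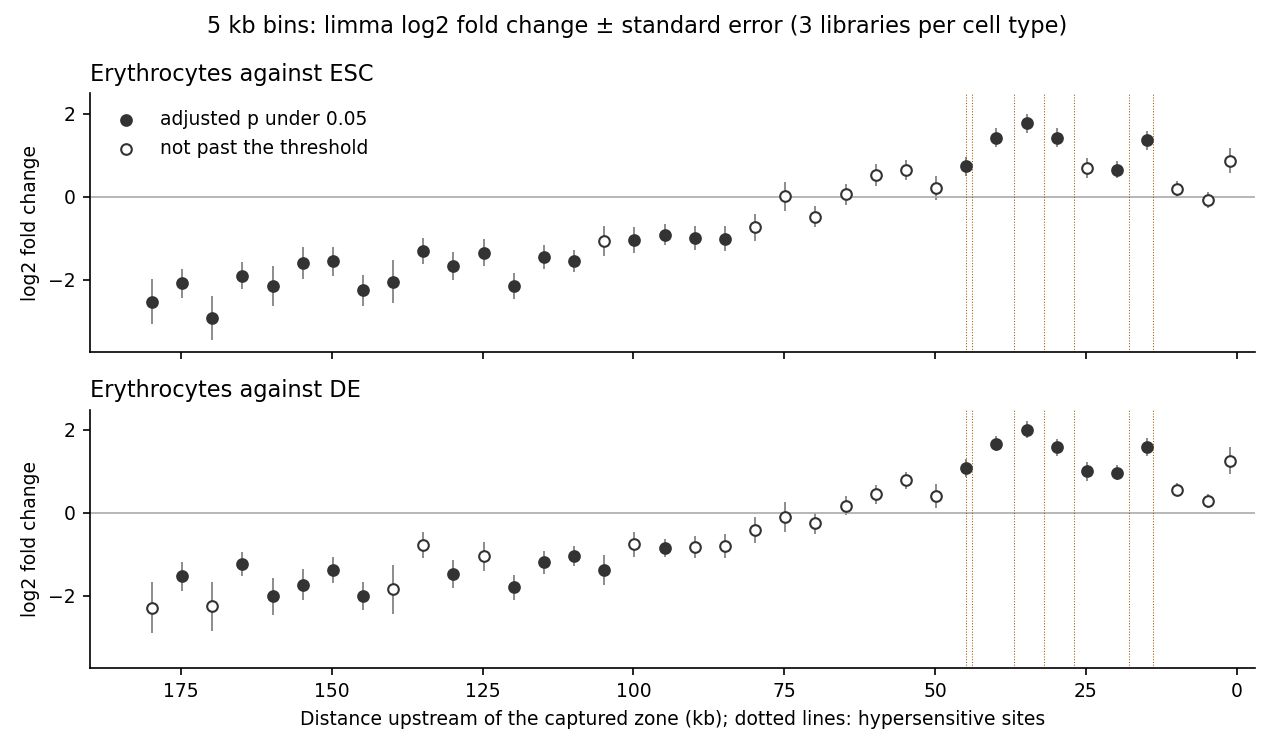
Log2 fold changes of the 37 flank bins (limma, with standard errors) for erythrocytes against ESC and against DE are plotted by distance upstream of the captured zone in kb, filled where the adjusted p was under 0.05. Filled points above 0 run from 14.8 to 44.8 kb, all points from 49.8 to 79.8 kb are open, and those farther out lie below 0.

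All of the 5 enhancer windows were contacted more in erythrocytes, the boundary windows too. They are given from the one nearest the promoters outwards. HS-8, which shares its fragments with the start of Nprl3, had 993, 1851 and 1482 interactions in erythrocytes, 467 to 541 in ESC and 421 to 445 in DE. The log2 fold change was 1.45 ± 0.256 against ESC (SE, adjusted p = 0.00123) and 1.67 ± 0.247 against DE (adjusted p = 0.00982). HS-12 had 623, 617 and 534 interactions in erythrocytes against 165 to 227 in ESC and 180 to 185 in DE. Its log2 fold changes were 1.52 ± 0.267 and 1.65 ± 0.224 (adjusted p = 0.00117 and 0.00711). For both sites the lowest erythrocyte library was clear of the highest ESC and DE library.

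HS-21 rose least among the enhancer windows, with 897, 1224 and 655 interactions in erythrocytes against 419 to 448 in ESC and 324 to 374 in DE. The changes were 1.02 ± 0.265 and 1.32 ± 0.259 (adjusted p = 0.0130 and 0.0194), and the first missed the threshold without ESC replicate 2 or ESC replicate 3, with adjusted p = 0.0539 and 0.0693. HS-26 held the most contacts, with 1732, 3268 and 2036 in erythrocytes against 753 to 846 in ESC and 610 to 687 in DE. Its changes were 1.51 ± 0.245 (adjusted p = 0.000738) and 1.79 ± 0.240 (adjusted p = 0.00711). HS-31 rose most, from 131 to 198 in ESC and 127 to 163 in DE to 901, 732 and 817 in erythrocytes. Its log2 fold changes were 2.18 ± 0.272 (adjusted p = 0.000237) and 2.45 ± 0.234 (adjusted p = 0.00460), and erythrocyte libraries did not overlap the others at any of the 5 sites.

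The sites together held 5146, 7691 and 5525 interactions in erythrocytes, 2080 to 2134 in ESC and 1663 to 1840 in DE, so the erythrocyte mean was 2.91 and 3.48 times theirs. Per kb of fragment, which fragment density can set, HS-26 was highest in each cell type at 787 ± 273 in erythrocytes, 264 ± 17.5 in ESC and 218 ± 12.8 in DE. HS-8 came next with 672 ± 201, 236 ± 17.3 and 202 ± 5.60, and in erythrocytes these neighbours did not differ beyond their spread. HS-31 and HS-12 were lowest in ESC at 79.9 ± 17.3 and 73.0 ± 11.7 per kb. In erythrocytes HS-31 reached 374 ± 38.8, overlapping HS-21 at 387 ± 119, while HS-12 at 214 ± 17.9 stayed lowest. Of the contacts in the 5 windows, HS-31 took 13.9% ± 4.06 in erythrocytes and 8.29% ± 1.88 in ESC, which overlapped (exact permutation test, p = 0.2), and 8.03% ± 0.698 in DE, which did not (p = 0.1 in the same exact test). HS-21 took 15.1% ± 2.88 in erythrocytes, below every library of ESC, at 20.7% ± 0.978, and of DE, at 20.1% ± 0.474 (exact permutation test, p = 0.1 for both).

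**Figure D4:**
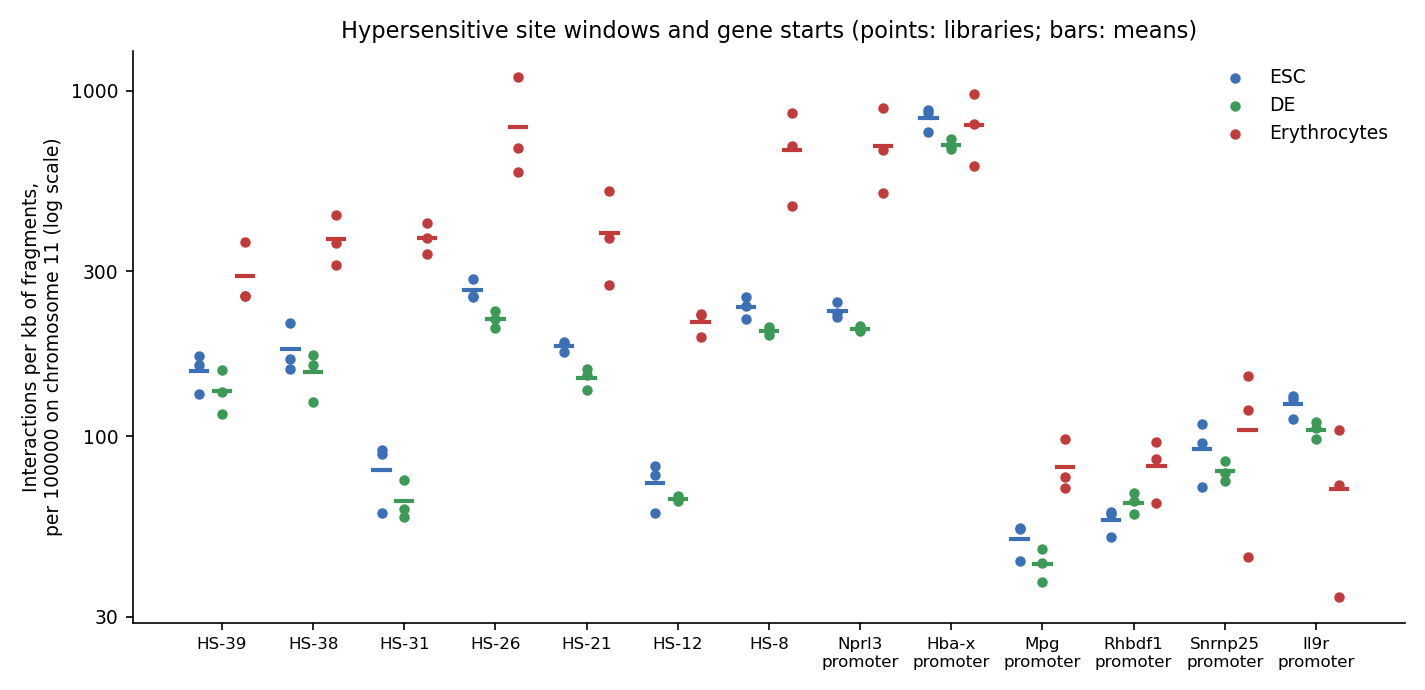
Interactions per kb of fragments and per 100000 on chromosome 11 (log axis) are given for each library (points, with bars at the means of 3) in the windows of the hypersensitive sites and around the starts of 6 genes. The erythrocyte points clear all others at the 7 hypersensitive sites and the starts of Nprl3 and Mpg, and overlap ESC at the starts of Hba-x and Snrnp25.

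The rise covered the stretch around the enhancers as well as the windows. Contacts per kb in the 5 enhancer windows were divided by those in the rest of the stretch 5 to 35 kb upstream of Hba-x. That rest holds sequence nearer the promoters than HS-8 and farther than HS-31, besides the sequence between the sites. The part of distance in the ratio was not tested. The ratio was 0.996, 1.00 and 1.02 in erythrocytes, so contacts were about as dense in the windows as in that rest. ESC libraries had 0.707 to 0.799 and DE libraries 0.710 to 0.756. The difference on the log2 scale was 0.44 from ESC and 0.46 from DE, with no overlap (p = 0.1 for each by exact two-sided permutation), and was -0.018 between DE and ESC (exact test, p = 0.9). In 5 kb bins, the bin with the start of Nprl3 held 1.48, 2.21 and 1.95 times the mean of its neighbours in erythrocytes, and 0.864 to 1.04 times in the ESC and DE libraries. The bin with HS-26 exceeded its neighbours in every library, with ratios of 1.29, 1.57 and 1.59 in erythrocytes that overlapped the 1.19 to 1.33 of ESC and the 1.35 to 1.39 of DE. Those neighbours hold the points of HS-31 and HS-21, which rose too. The overlap therefore does not show whether HS-26 rose by itself.

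The boundary windows HS-38 and HS-39 overlap each other and share fragments. HS-38 had 723, 1009 and 837 interactions in erythrocytes against 361 to 489 in ESC and 289 to 397 in DE, with log2 fold changes of 1.04 ± 0.251 (adjusted p = 0.00862) and 1.26 ± 0.232 (adjusted p = 0.0177). HS-39 had 768, 1103 and 766 against 398 to 514 and 350 to 469, with changes of 0.89 ± 0.251 (adjusted p = 0.0222) and 1.08 ± 0.235 (adjusted p = 0.0284). The call at HS-39 against ESC was lost without ESC replicate 1, 2 or 3, with adjusted p = 0.0551, 0.0514 and 0.0772. Across the point between both sites, contacts per kb in the 20 kb on the globin side exceeded those in the 20 kb beyond it in all libraries, by 2.79, 3.50 and 3.32 times in erythrocytes, 1.66 to 1.79 times in ESC and 1.53 to 1.62 times in DE. The log2 step was higher in erythrocytes than in ESC by 0.89 and than in DE by 1.03 (p = 0.1 for each by exact two-sided permutation). A step of this size was thus measured where contacts also decline with distance, and the part of that decline was not tested.

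Among the genes of the flank, Nprl3 gained most in erythrocytes. The contacts of its body, minus strand at 32125628 to 32167707, rose to 13839, 18939 and 13066 from 6646 to 7185 in ESC and 5529 to 6121 in DE. The log2 fold changes were 1.11 ± 0.159 (adjusted p = 0.000396) and 1.35 ± 0.139 (adjusted p = 0.00460). The window around its start had 1636, 2897 and 2178 in erythrocytes, 715 to 794 in ESC and 653 to 673 in DE, with changes of 1.53 ± 0.235 (adjusted p = 0.000560) and 1.70 ± 0.221 (adjusted p = 0.00711). Hba-x, the embryonic globin gene between Nprl3 and the captured zone, had 1321, 1595 and 1391 interactions over its body in erythrocytes, 1552 to 1684 in ESC and 1346 to 1401 in DE. It did not pass the threshold against ESC (log2 difference -0.18 ± 0.197) or DE (0.05 ± 0.159).

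Beyond the boundary, Mpg, a DNA glycosylase gene whose annotation overlaps the 3′ end of Nprl3, had 968, 973 and 686 interactions over its body in erythrocytes against 611 to 710 in ESC and 564 to 638 in DE. Neither difference passed the threshold (0.38 ± 0.238 and 0.53 ± 0.214, adjusted p = 0.282 and 0.105), and both passed without erythrocyte replicate 3, with adjusted p = 0.0328 and 0.0150. Scaled to all interactions both turned negative, to -0.49 and -0.23. The window around the start of Mpg had 303, 392 and 282 in erythrocytes, 174 to 216 in ESC and 151 to 189 in DE, with no overlap. Its differences of 0.66 ± 0.284 and 0.89 ± 0.259 (SE) missed the threshold, with adjusted p = 0.104 and 0.0632. Against DE it passed with a pseudocount of 2, all 3 cell types in the fit, windows of 2 kb to each side and without erythrocyte replicate 3, with adjusted p = 0.0403, 0.0232, 0.0384 and 0.0134, and edgeR gave 0.588. Rhbdf1, which encodes an inactive rhomboid protein, had 1562, 1694 and 1059 interactions in erythrocytes, 1497 to 1647 in ESC and 1348 to 1502 in DE. Snrnp25, for a protein of the minor spliceosome, had 407, 654 and 222 in erythrocytes, 363 to 414 in ESC and 395 to 455 in DE. For both genes the groups overlapped and neither passed the threshold. Il9r, a cytokine receptor gene and the farthest of the protein coding genes, fell in erythrocytes, to 698, 758 and 514 from 1321 to 1483 in ESC and 1164 to 1196 in DE. The log2 fold changes were -1.07 ± 0.230 (adjusted p = 0.00426) and -0.86 ± 0.204 (adjusted p = 0.0368), and the second was lost without DE replicate 1 or DE replicate 2, with adjusted p = 0.0625 and 0.0621.

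In all, 9 of the 19 named windows and gene bodies were called higher in erythrocytes than in ESC and 1 was called lower, and the counts were the same against DE. In the fit of bins alone, 2.75% and 15.8% of all bins were called higher and lower against ESC, and 0.979% and 6.14% against DE. Several of the named windows and bodies share fragments, so they are not independent. edgeR on the recovered reads called the same number, 9 higher and 1 lower, against ESC, and 5 higher and 2 lower against DE, where HS-21, HS-38, HS-39 and the body of Nprl3 missed its threshold. Scaled to all interactions of a library, none was called higher in either comparison and the body of Il9r alone was called lower, against ESC. The log2 fold changes of the 9 kept their sign on that scale, from 0.022 at HS-39 to 1.29 at HS-31 against ESC.

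Fragment by fragment, 427 members had the 10 reads over the libraries of erythrocytes and ESC that the test required. Of these, 39 were called higher in erythrocytes (9.13%) where 2.58% of the 2015 fragments tested on the chromosome were, and 96 lower (22.5%) where 35.7% were. Against DE, 53 of 430 were called higher (12.3%) with 1.96% of all fragments, and 81 lower (18.8%) with 37.1%. The median log2 fold change over the members tested was -0.52 against ESC, and -0.77 over all fragments. On the globin side of HS-38 and HS-39, 37 of 109 fragments were called higher than in ESC and none lower, with a median of 0.68. On the far side 2 of 318 were called higher and 96 lower, with a median of -0.84. Against DE the counts were 48 and 0 of 109 on the globin side and 5 and 81 of 321 beyond. Scaling to all interactions turned the flank's calls to 1 higher and 149 lower against ESC and 1 and 133 against DE. Of all fragments tested on the chromosome, 3 were then higher and 1007 lower of 2015, and 1 and 1617 of 3419. TMM factors gave 49 and 75 against ESC, with 67 and 606 over all, and 52 and 87 against DE, with 63 and 1317. With edgeR on the recovered reads there were 59 and 32, with 80 and 232 over all, and then 57 and 29, with 74 and 254. The lower calls depended on the filter and the tool. Without a minimum of reads 8 were higher and 0 lower against ESC and 20 and 0 against DE. Over all fragments these counts were 17 and 1 and then 39 and 0. DESeq2 gave 43 and 8 and then 54 and 12, with 53 and 73 and then 64 and 125 over all. Without ESC replicate 1, 2 or 3 the flank's counts against ESC were 19 and 51, 20 and 39, and 19 and 52. Over all fragments they were 23 and 404, 23 and 302, and 22 and 426. Without DE replicate 1, 2 or 3 the flank's counts against DE were 32 and 43, 25 and 35, and 31 and 53. Those over all fragments were 34 and 771, 27 and 637, and 36 and 1023. Without erythrocyte replicate 3 the flank's counts were 40 and 27 against DE, with 50 and 297 over all. Scaling to all interactions moved the median change of all fragments from -0.77 to -0.68 against ESC and from -0.51 to -0.40 against DE. The median of the members moved the other way, from -0.517 to -0.725 against ESC and from -0.307 to -0.542 against DE. On that scale it lay below the median of all fragments in both comparisons.

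**Figure D5:**
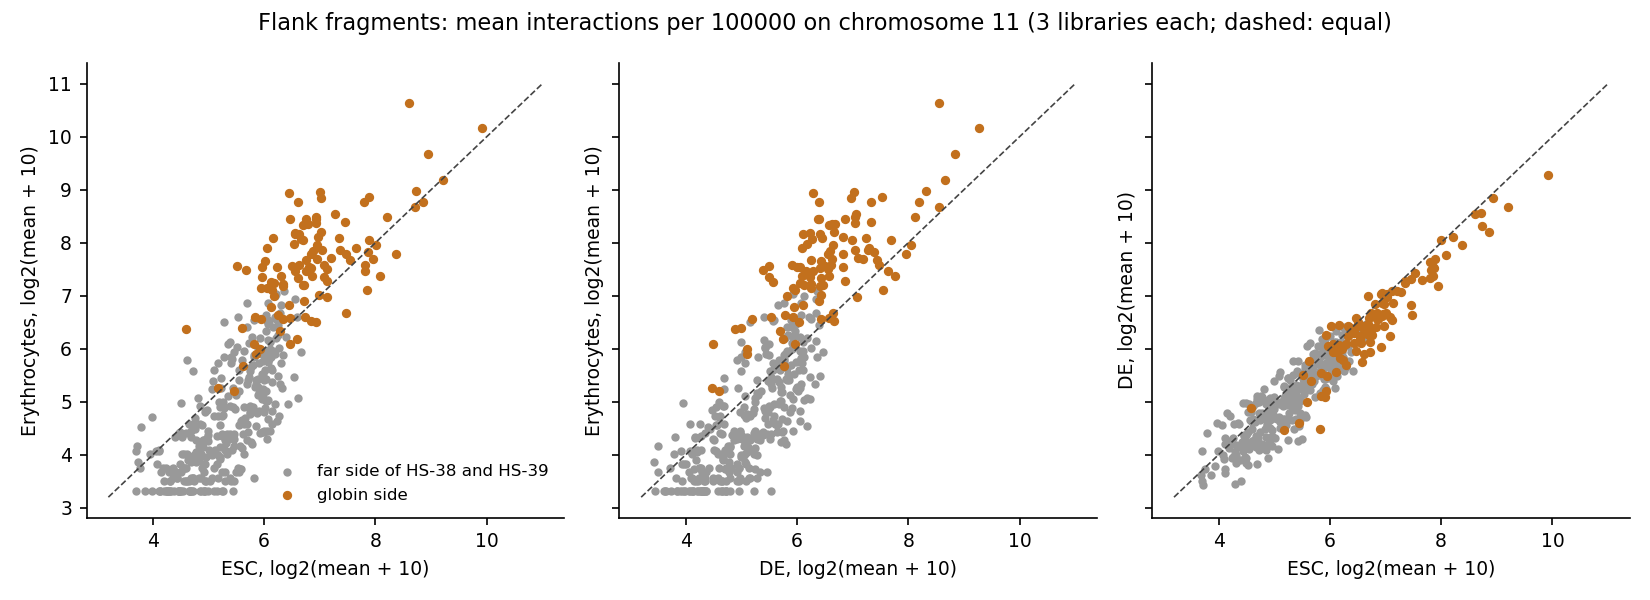
Each point is a flank fragment, placed by log2 of its mean interactions per 100000 on chromosome 11 plus 10 in a pair of cell types, with 3 libraries each and a dashed line at equal values. Fragments on the globin side of HS-38 and HS-39 (orange) lie mostly above the line for erythrocytes and those beyond (grey) mostly below it, while DE against ESC stays near the line.

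The highest erythrocyte means were at the 5 fragments listed here, all centred within 4 kb of the captured zone. The fragment that borders it, chr11:32181399-32182316, had 789, 648 and 3327 interactions in erythrocytes against 337 to 443 in ESC and 317 to 442 in DE, so replicate 3 sets its mean of 1588 apart. Without this fragment the flank share was still higher in erythrocytes, by 6.07 percentage points against ESC and 10.6 against DE. Its neighbour at chr11:32180845-32181398 had the highest mean in ESC, 959, and in DE, 607, and reached 1136 in erythrocytes, where the libraries of ESC and erythrocytes overlapped. The next at chr11:32179854-32180844 had means of 807, 481 and 447 in erythrocytes, ESC and DE, that at chr11:32179084-32179641 had 570, 582 and 396, and that at chr11:32178043-32179083, which ends Hba-x, had 497, 414 and 309.

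The fragments called higher with the largest changes and no overlap lay in or at the start of Nprl3. The intronic fragment of HS-31 printed above led both comparisons, at chr11:32145279-32146566, with 590, 450 and 393 in erythrocytes, 61.1 to 86.0 in ESC and 50.5 to 81.1 in DE. Its log2 fold changes were 2.48 ± 0.308 (adjusted p = 0.0137) and 2.64 ± 0.280 (adjusted p = 0.0145). Second in both was the fragment with the first exon of Nprl3 at chr11:32167510-32168370, with 278, 418 and 575 in erythrocytes against 58.7 to 106 in ESC and 66.8 to 86.8 in DE, and changes of 2.14 ± 0.365 and 2.32 ± 0.317. A fragment in an intron between HS-31 and HS-38, at chr11:32142086-32144132 and in no named window, rose from 49.4 to 96.1 in ESC and 71.2 to 77.9 in DE to 291, 319 and 413. The others were at 32142057 to 32142085 and 32146903 to 32148395 against ESC, with changes of 1.91 and 1.90, and at 32144385 to 32145278 and 32167110 to 32167265 against DE, with 2.10 and 2.08.

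The fragments called lower with the largest changes were all beyond 90 kb from the captured zone. In an exon of Il9r, the fragment at 32087980 to 32088047 had 0, 5.23 and 0 interactions in erythrocytes against 24.5 to 61.1 in ESC, a log2 fold change of -2.23 ± 0.407. The fragments at 32050694 to 32051798 and 32042141 to 32042438, in no annotated gene, had no read in any erythrocyte library. With 3 reads over the group put in as a floor, their pooled values were 5.53-fold and 5.13-fold lower than in ESC. Against DE they were 6.40-fold and 4.93-fold lower. These figures leave out the error of the ESC and DE reads and the spread between libraries, at fragments picked for large falls. Altogether 39 members had no read in any erythrocyte library, all between 80.9 and 182 kb away and of a median length of 133 bp, while every member had reads in ESC and in DE. Such fragments were not counted over the rest of the chromosome. Erythrocyte libraries were shallower, with 9919 to 24077 reads on the chromosome against 34398 to 59335 in ESC and 62908 to 126710 in DE, and the part of depth in these zeros was not tested. The other fragments named for the largest falls, which had few reads in erythrocytes, were at 32036009, 32062451 and 32070893 against ESC, with changes from -1.96 to -1.89, and at 32076601, 32071389 and 32068631 against DE, with changes from -1.88 to -1.82.

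DE held fewer contacts than ESC along the flank, 0.801 times as many on the globin side of HS-38 and HS-39 and 0.853 times on the far side, with libraries apart on both (exact two-sided permutation test, p = 0.1). Few single fragments passed the test. No member was called higher in DE and 10 of 434 were called lower, where 0.0487% and 0.462% of the 4109 fragments tested on the chromosome were called. DE libraries lay wholly below ESC libraries at 85 of these members and wholly above at 8, a count not made for the rest of the chromosome. In 5 kb bins 0 were higher and 11 of 37 lower, beside 0.204% and 0.499% of all bins. The trend of limma gave bins a very small spread here, with adjusted p = 8.4e-28 (limma) at the bin 4.82 kb away. Calls of bins in edgeR were not counted. edgeR called 0 members at adjusted p under 0.05 and 51 at an unadjusted p under 0.05, where limma had 84, and DESeq2 called 1. The 10 fragments called lower included 8 on the globin side and 2 beyond, and their largest fall was at a fragment of 21 bp in an intron of Nprl3, at 32157249 to 32157269, with 12.9, 11.8 and 12.7 in DE against 58.7, 32.0 and 49.4 in ESC. The next were at 32070778 to 32070819 and 32011829 to 32012020 (log2 fold change -1.20 and -1.19) and, between Nprl3 and Hba-x, at 32173393 to 32173449 and 32173029 to 32173091 (-0.89 and -0.82).

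Of the 19 named regions, 0 were called higher in DE and 3 lower, beside 0.204% and 0.499% of all bins in the fit of bins alone. The body of Nprl3 had 6121, 6031 and 5529 in DE against 7185, 7171 and 6646 in ESC, a log2 difference of -0.25, and its adjusted p was 2.7e-20 in limma, whose trend gave large regions a very small spread here, but 0.793 in edgeR and 0.405 with all 3 cell types in the fit. The body and the start of Hba-x differed by -0.23 and -0.25 (adjusted p = 0.0249 and 0.00145), and both calls were lost in edgeR, with adjusted p = 0.869 and 0.805, and in each fit without 1 of the DE libraries, and the first also without ESC replicate 1 or 3. HS-26, HS-21 and HS-8 had differences of -0.27 ± 0.090, -0.30 ± 0.123 and -0.22 ± 0.112 (SE), with libraries apart, and did not pass the threshold. No hypersensitive window of 1 kb to each side passed it between DE and ESC, while with 2 kb to each side HS-21, HS-8 and HS-38 were lower in DE by limma (-0.36, -0.28 and -0.34, adjusted p = 0.00199, 0.00700 and 0.0206). The log2 step across HS-38 and HS-39 was 0.78 ± 0.056 in ESC and 0.65 ± 0.045 in DE (SD, n = 3, exact permutation test p = 0.1), and the second capture put DE 0.017 above ESC instead.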

How the data were processed

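The authors mapped reads with Bowtie after Trim Galore, per the labels, assigned them to DpnII fragments of mm9 and deposited a signal per fragment, scaled to 100000 interactions per library and viewpoint. Handling of PCR duplicates is not given in the sources used here. In the 18 Hba columns 100% of values were, to within 0.05, a whole number times a step fitted per column, taken here as 1 read. The other 90 columns hold other viewpoints and were not used. Each Hba column was rescaled to 100000 interactions on chromosome 11. limma 3.58.1 (eBayes with trend) was run in R 4.3.3 on log2(value + 10), over all fragments, or 5 kb bins with the named regions, that had at least 10 reads over the 2 cell types compared, with Benjamini-Hochberg adjustment at 0.05. Fold changes on this scale understate those of low values. Single values were compared by exact permutation tests over libraries in scipy 1.17.1. edgeR 4.0.16 and DESeq2 1.42.0 on recovered reads were alternatives. The fragment fits of limma, edgeR and DESeq2 were tested on simulated data, and the fits of bins, of named regions and of the other settings were not. The stretch whose fragments are the members, the regions and the lists were chosen with earlier results of these data known. Regions named were all protein coding genes of the flank and its hypersensitive sites. Fragments named were those with the highest means and, per comparison, up to 5 in each direction with the largest called change and no overlap of libraries. The series calls its replicates biological, and p-values measure the spread between them. In the limma fits for DE against ESC, of fragments as well as of bins and named regions, the trend set each spread wholly or nearly so from all features. Those p-values do not measure the spread of a single fragment, bin or region between its own replicates.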

Additional observations from a re-analysis of the deposited data

How the results depend on the processing

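The flank share, the 3 ratios and the counts of calls were recomputed under other settings. After seeing the data, erythrocyte comparisons were added with replicate 2 alone, and the flank share without the fragment next to the captured zone. Replicate 2 alone leaves 1 erythrocyte library, assumed to vary like the rest. Erythrocyte libraries hold 3189 to 7118 flank reads, and the part of depth in the counts of calls was not tested. With interactions of all chromosomes as the total, the flank share in erythrocytes was -3.48 points against ESC and 0.728 against DE, and named regions called fell to 1 and 0. The cause was not tested.

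Farther than 20 kb on both sides the upstream to downstream ratio differed by 2.01, 1.94 and 0.070 on the log2 scale for erythrocytes against ESC, against DE and DE against ESC. The second capture turned the difference in that log2 ratio to -0.0086 and the difference in the log2 step to 0.017 for DE against ESC. With windows of 2 kb to each side, the log2 ratio of enhancer windows to the rest differed by 0.59 for erythrocytes against DE and by -0.13 for DE against ESC. Those windows called 7 regions between DE and ESC, adding HS-21, HS-8, HS-38 and the start of Nprl3. Replicate 2 alone gave flank shares higher by 11.6 points than ESC and 16.2 than DE, log2 ratios to downstream higher by 1.32 and 1.32, 218 fragments called against DE (125 higher and 93 lower) and 16 regions called against DE, and 161 fragments (80 higher and 81 lower) against ESC. It turned the log2 differences of Snrnp25 to 0.73 against ESC and 0.60 against DE and of Rhbdf1 to 0.24 against DE.

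Of 427, 430 and 434 flank fragments tested, 135, 134 and 10 were called in erythrocytes against ESC, against DE and in DE against ESC. These became 51, 66 and 1 with DESeq2 and 8 (all higher), 20 (all higher) and 7 without a minimum of reads. That last setting adjusted over 34167, 60794 and 66333 fragments of the chromosome. As 5 kb bins, 25, 19 and 11 of 37 were called, which are larger shares of a smaller number. edgeR called 86 fragments against DE. Between DE and ESC, edgeR and the fit with all 3 cell types called 0 fragments and 0 regions, a pseudocount of 2 called 4 fragments and TMM 2.

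Leaving out 1 library at a time gave 59 to 138, 60 to 151 and 1 to 6 fragments, and 8 to 12, 9 to 13 and 1 to 3 regions. The lowest counts of 59 and 60 came without ESC replicate 2 and DE replicate 2, counts also fell by over 1.5 times without ESC replicates 1 and 3 (70 and 71), DE replicates 1 and 3 (75 and 84) and, against DE, erythrocyte replicate 3 (67). Flank shares then differed by 4.53 to 9.09, 9.06 to 13.6 and -4.97 to -3.99 points, ratios to downstream by 0.92 to 1.17, 0.92 to 1.17 and -0.017 to 0.029, steps by 0.83 to 0.99, 0.96 to 1.12 and -0.16 to -0.10, and window ratios by 0.40 to 0.49, 0.43 to 0.48 and -0.053 to 0.035. For DE against ESC, the difference in the log2 ratio to downstream turned to -0.0092 and -0.017 without ESC replicates 2 and 3. The difference in the log2 window ratio turned to 0.035 and 0.0050 without ESC replicate 3 or DE replicate 1.

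Replicate numbers did not pair the libraries, since the deviations of same-numbered libraries correlated between -0.022 and 0.066 over bins. With the replicate number as a block, 162, 147 and 10 fragments and 10, 10 and 4 regions were called, the call it added being the body of Il9r between DE and ESC (adjusted p = 0.0152), and the mean differences of shares and ratios stayed as they were (6.89 points for the share against ESC).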
